A study of Mus musculus with 72 samples.

Results

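The blood-brain barrier is formed by endothelial cells that are sealed to each other by tight junctions, fed by dedicated transporters and guarded by efflux pumps that return drugs and lipophilic compounds to the blood. Pericytes lie on the outside of these cells within the vessel wall, and signalling through the platelet-derived growth factor receptor beta keeps them there. In amyloid models the same vessels are of interest because they are a route by which amyloid-beta leaves the brain.

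Described here are 6 genes of this barrier among the 1266 named genes of the deposited table: Cldn5, Slc2a1, Nostrin, Abcb1a, Abcg2 and Pdgfrb. Their rows were taken by symbol, from a choice made with earlier results of these data known. Cldn5 encodes claudin-5, the main claudin of the endothelial tight junction, and Slc2a1 encodes GLUT1, which carries glucose across the barrier. Nostrin encodes a protein that binds endothelial nitric oxide synthase and takes part in moving it inside the cell. Abcb1a and Abcg2 encode the efflux pumps P-glycoprotein and BCRP. Pdgfrb encodes the receptor that marks pericytes.

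The RNA came from the cortex of 36 mice of 7.5 months and was counted on 2 NanoString nCounter panels, Glial and Neuropathology, which hybridise a barcoded probe to each transcript without amplification. The study asked what variants of PLCG2, a phospholipase of microglia and other immune cells, do in the brain. Every mouse was labelled 5xFAD, a model whose transgenes drive human amyloid precursor protein and presenilin with familial mutations from a neuronal promoter. The 3 genotypes were M28L_5xFAD (5xFAD with the M28L variant), P522R_5xFAD (5xFAD with the P522R variant) and 5xFAD alone, each with 6 females and 6 males, so that there were 6 groups of 6 mice. No mice lacking those transgenes are analysed here.

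Of a list of endothelial markers, 7 of 11 were measured: Cldn5, Pecam1, Tie1, Flt1, Esam, Slc2a1 and Nostrin. Of 8 pericyte and smooth muscle markers, only Pdgfrb was measured. The 5 other measured genes of a wider mural list, Cspg4, Des, Notch3, Vim and Lama2, are given further on. No marker of perivascular fibroblasts, choroid plexus or red blood cells was measured. The tissue is bulk cortex, in which neuronal markers summed to between 44460.5 and 84986.3 normalised counts per mouse and the 7 endothelial markers to between 582.0 and 1598.5. In bulk tissue, fewer vessel cells and less RNA per vessel cell cannot be told apart. The depth, as whole counts recovered from the values, lay between 237563 and 1957325 for 1 mouse on 1 panel. Totals were lower in M28L_5xFAD and 5xFAD females than in the males of those genotypes, on both panels.

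The values below are the deposited log2 values unless counts are named, and a change of 1 on this scale is 2-fold. Levels of different genes are not compared, since probes differ in efficiency. A gene is said to have risen or fallen where limma, fitted across all 1266 genes, gave a Benjamini-Hochberg adjusted p below 0.05. Each call was also run under alternatives, which are other scalings, filters, model terms and subsets of the mice. The labels name no assay run, so a run that followed a genotype or a sex cannot be told apart from it.

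The promoters of the 3 genes that differed between M28L_5xFAD and 5xFAD mice are shown because those genes did not move the same way. Each is the RefSeq window of GRCm38.p6 that covers 250 bases before to 50 after the annotated start, on the plus strand and read 5′ to 3′. They lie at chr16:18776597-18776896 for Cldn5, chr4:119108495-119108794 for Slc2a1 and chr2:69135550-69135849 for Nostrin. Capitals mark 3 short motifs found on either strand: the ETS core GGAA, the GC box GGGCGG and the hypoxia response core ACGTG, with their reverse complements.
Cldn5: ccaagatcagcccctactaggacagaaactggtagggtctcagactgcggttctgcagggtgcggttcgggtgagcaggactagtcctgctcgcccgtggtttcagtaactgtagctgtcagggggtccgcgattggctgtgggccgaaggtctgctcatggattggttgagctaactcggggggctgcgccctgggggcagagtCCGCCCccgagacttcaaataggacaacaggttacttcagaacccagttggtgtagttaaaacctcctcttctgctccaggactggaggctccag
Slc2a1: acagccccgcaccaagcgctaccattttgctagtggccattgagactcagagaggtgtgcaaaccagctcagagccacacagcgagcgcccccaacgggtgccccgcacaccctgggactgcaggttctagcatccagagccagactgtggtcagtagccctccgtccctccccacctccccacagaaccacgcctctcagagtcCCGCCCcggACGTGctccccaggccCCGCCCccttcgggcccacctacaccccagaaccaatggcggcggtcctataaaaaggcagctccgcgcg
Nostrin: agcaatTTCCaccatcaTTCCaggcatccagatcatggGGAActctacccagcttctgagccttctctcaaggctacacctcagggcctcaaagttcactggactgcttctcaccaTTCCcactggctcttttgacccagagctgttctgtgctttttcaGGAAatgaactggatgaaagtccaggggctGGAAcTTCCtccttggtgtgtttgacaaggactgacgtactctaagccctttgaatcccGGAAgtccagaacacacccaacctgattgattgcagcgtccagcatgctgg
The windows of Cldn5 and Slc2a1 were richer in G and C, at 58.3% and 65.3%, than the Nostrin window at 51.0%, and the median over all windows was 52.7%. The ETS core was found in 96.0% of the 32851 RefSeq windows. It had 8 matches in the Nostrin window and 0 in those of Cldn5 and Slc2a1. The GC box, in 35.7% of all windows, had 1 match in Cldn5, 2 in Slc2a1 and 0 in Nostrin. The hypoxia response core, in 19.6% of all windows, had 1 match in Slc2a1 and 0 in the other two. Slc2a1 alone of these 3 windows held the TATA box TATAAA, which 13.6% of all windows hold, with 1 match. None of the 3 windows held the E box CACGTG (7.2% of all windows) or the SOX or TCF core ACAAAG (18.7%). Matches describe letters in these windows and do not show that a factor binds there.

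**Figure D1:**
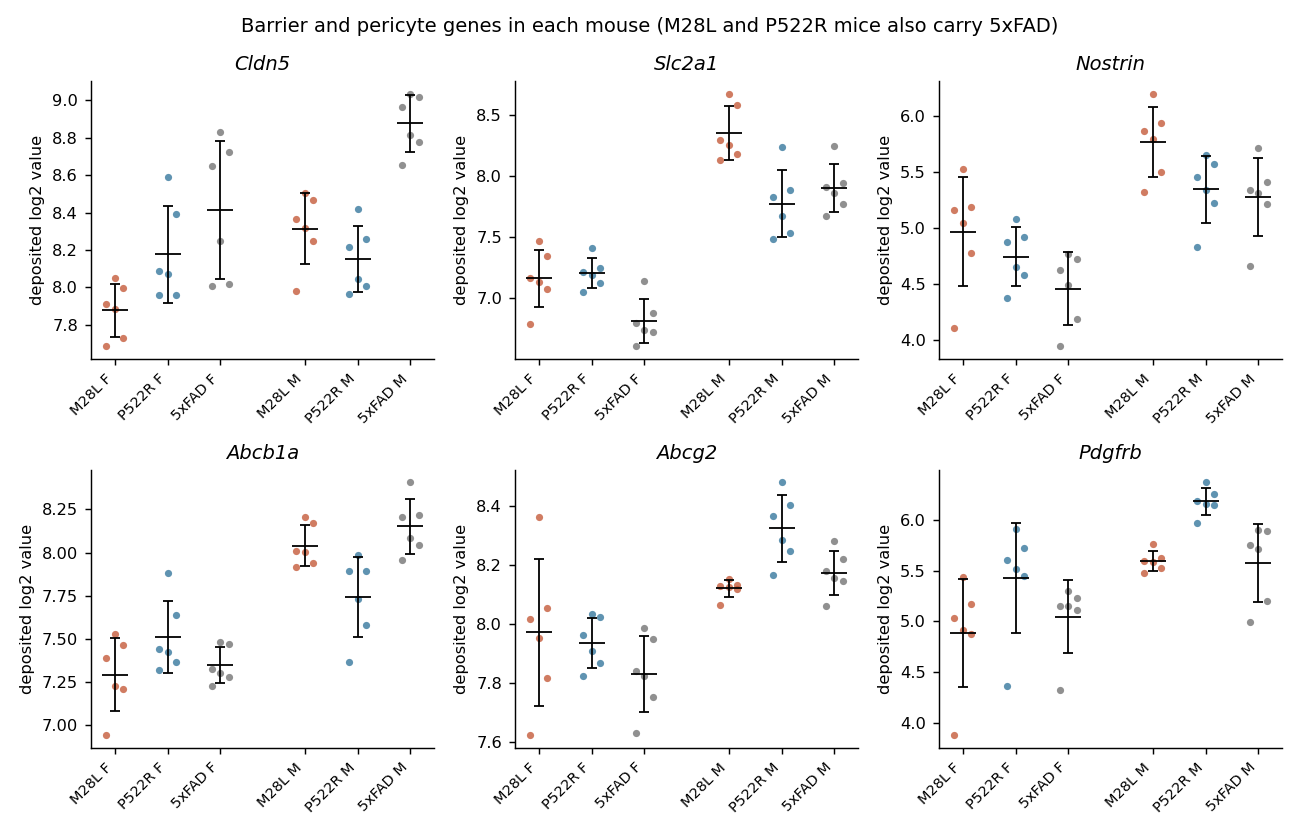
Deposited log2 value of each of the 6 genes (vertical axes, each with its own range) in each mouse, by genotype and sex; F is female and M is male, points are mice, and bars are the group mean and SD of 6 mice. Cldn5 was lower in all 6 M28L_5xFAD and all 6 P522R_5xFAD males than in any 5xFAD male, and Slc2a1 was lower in every female than in any male of the same genotype. The share of all genes that separate in these ways was not counted.

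M28L_5xFAD mice were first compared with 5xFAD mice. Averaged over the sexes, 3 of the 6 barrier genes passed the test, against 10.3% of all genes. Since the 6 were chosen with earlier results of these data known, this share and those within each sex do not set them apart. Cldn5 fell, while Slc2a1 and Nostrin rose. The efflux pump genes and Pdgfrb did not pass. Over all genes 59 were higher and 71 lower, with a median of 0.00. Centring on housekeeping genes, of which the table held only 2 from the list used, moved that median to 0.17 and the split to 276 higher and 30 lower.

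Cldn5 in females ran from 7.69 to 8.05 with a median of 7.9 in M28L_5xFAD mice, and from 8.01 to 8.83 with a median of 8.45 in 5xFAD mice. In males it ran from 7.98 to 8.50 with a median of 8.34 in M28L_5xFAD mice, and from 8.66 to 9.04 with a median of 8.89 in 5xFAD mice. The female groups overlapped slightly and the male groups did not, and all 12 M28L_5xFAD mice lay below the 5xFAD mean of their sex. Averaged over the sexes the level was 8.1 ± 0.17 in M28L_5xFAD mice and 8.65 ± 0.28 in 5xFAD mice (SD within sex, n = 12 each). The difference was -0.55 ± 0.09 (SE; adjusted p = 4.03e-05), or 1.46-fold lower, with a 95% interval of -0.73 to -0.37. It ranked 10th by p among all genes, and was close in size in females (-0.54, adjusted p = 0.00969) and males (-0.56, adjusted p = 0.00772). In females 1 of the 6 genes passed, Cldn5, against 3.87% of all genes, and in males 2 did, Cldn5 and Slc2a1, against 2.05%.

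The 5xFAD females were themselves spread. By the index that the labels give each mouse, the 3 lowest Cldn5 values were those of index 1 to 3 and the 3 highest those of index 4 to 6. With only the 5xFAD mice of index 1 to 3 in the fit, the averaged Cldn5 difference was -0.38 (adjusted p = 0.0134), and with only index 4 to 6 it was -0.72 (adjusted p = 5.68e-06). In females alone it was -0.22 (adjusted p = 0.416) against index 1 to 3 and -0.86 (adjusted p = 0.000349) against index 4 to 6. In males it was -0.54 (adjusted p = 0.025) and -0.59 (adjusted p = 0.0233). The fall of Cldn5 averaged over the sexes therefore passed against either 5xFAD subset, and of these subsets the fall in females passed against index 4 to 6 alone. The call in females ended in 5 of 16 alternatives, among them a fit of only the groups compared (-0.54, adjusted p = 0.0514) and one with only the M28L_5xFAD mice of index 7 to 9 (-0.53, adjusted p = 0.0699). The call in males ended in 3 of 16 alternatives. It did not pass with only the M28L_5xFAD mice of index 1 to 3 (-0.45, adjusted p = 0.334), and after housekeeping centring neither sex passed alone (-0.31 in females and -0.45 in males). The 5xFAD females of index 1 to 3 are numbered 1180, 1189 and 1190. Those of index 4 to 6 are numbered 1248, 1249 and 1253. Beyond such mouse numbers, the labels do not say what sets the mice of these subsets apart, and it was not tested.

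Slc2a1, the glucose transporter gene, went the other way. In females it ran from 6.78 to 7.47 with a median of 7.15 in M28L_5xFAD mice, and from 6.6 to 7.14 with a median of 6.77 in 5xFAD mice. In males it ran from 8.13 to 8.68 with a median of 8.27 in M28L_5xFAD mice, and from 7.68 to 8.24 with a median of 7.89 in 5xFAD mice. Both pairs of groups overlapped, and 11 of 12 M28L_5xFAD mice lay above the 5xFAD mean of their sex. The means over the sexes were 7.76 ± 0.23 in M28L_5xFAD mice and 7.36 ± 0.19 in 5xFAD mice (SD within sex, n = 12 each). The rise was 0.40 ± 0.08 (SE; adjusted p = 0.00112), or 1.32-fold. Within a sex it passed in males (0.45, adjusted p = 0.0298) and not in females (0.35, adjusted p = 0.0886). The call in males ended when any 1 of 7 mice was left out (M28L_5xFAD males 9 and 10, and 5xFAD males 1181, 1182, 1268, 1269 and 1270), with differences of 0.39 to 0.52 over 12 omissions. The averaged call held in all 24 omissions and ended in 4 of 17 alternatives. Among these were the 5xFAD mice of index 1 to 3 alone (0.27, adjusted p = 0.143), the M28L_5xFAD mice of index 1 to 3 alone (0.31, adjusted p = 0.0646) and a fit with no sex term (0.40, adjusted p = 0.535).

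Nostrin also rose. In females it ran from 4.11 to 5.53 with a median of 5.11 in M28L_5xFAD mice, and from 3.95 to 4.77 with a median of 4.56 in 5xFAD mice. In males it ran from 5.32 to 6.20 with a median of 5.83 in M28L_5xFAD mice, and from 4.66 to 5.72 with a median of 5.33 in 5xFAD mice. The groups overlapped in both sexes, and 11 of 12 M28L_5xFAD mice lay above the 5xFAD mean of their sex. The means were 5.37 ± 0.41 in M28L_5xFAD mice and 4.87 ± 0.34 in 5xFAD mice (SD within sex, n = 12 each), a rise of 0.50 ± 0.14 (SE; adjusted p = 0.0163) or 1.42-fold. Neither sex passed alone, at 0.51 in females (adjusted p = 0.136) and 0.49 in males (adjusted p = 0.267). Nostrin is a dim gene, with 12 to 75 recovered counts per mouse. The 100 dimmest genes of its panel had group medians of 11.2 normalised counts in M28L_5xFAD females and 10.4 in 5xFAD females, against 31.3 and 22.0 for Nostrin. In males the same medians were 15.7 and 16.5, against 54.7 and 38.8 for Nostrin. With that level subtracted, the rise was 0.86 with an adjusted p of 0.0606, and against the 5xFAD mice of index 1 to 3 it was 0.31 with an adjusted p of 0.316. With only the M28L_5xFAD mice of index 7 to 9 it was 0.34 (adjusted p = 0.236), and with no sex term 0.50 (adjusted p = 0.313).

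Abcb1a had medians of 7.3 in M28L_5xFAD females and 7.3 in 5xFAD females, and of 8.01 in M28L_5xFAD males and 8.15 in 5xFAD males. The difference was -0.08 (95% interval -0.23 to 0.07, adjusted p = 0.537). Abcg2 differed by 0.04 (95% interval -0.07 to 0.16, adjusted p = 0.7). These intervals leave room for a fall of Abcb1a of up to 0.23 and a rise of Abcg2 of up to 0.16. Pdgfrb differed by -0.07, with a wide interval of -0.37 to 0.23 (adjusted p = 0.833). Its value in M28L_5xFAD females ran from 3.88 to 5.43, a spread that 1 low mouse widened.

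The effect of M28L was also compared between the sexes. Of 1266 genes, limma called 0 for this interaction, which is 0% of genes, while 34 had an unadjusted p below 0.05. For the barrier genes the female effect minus the male effect was 0.03 for Cldn5 (95% interval -0.33 to 0.38), -0.10 for Slc2a1 (-0.44 to 0.24) and 0.02 for Nostrin (-0.55 to 0.58).

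**Figure D2:**
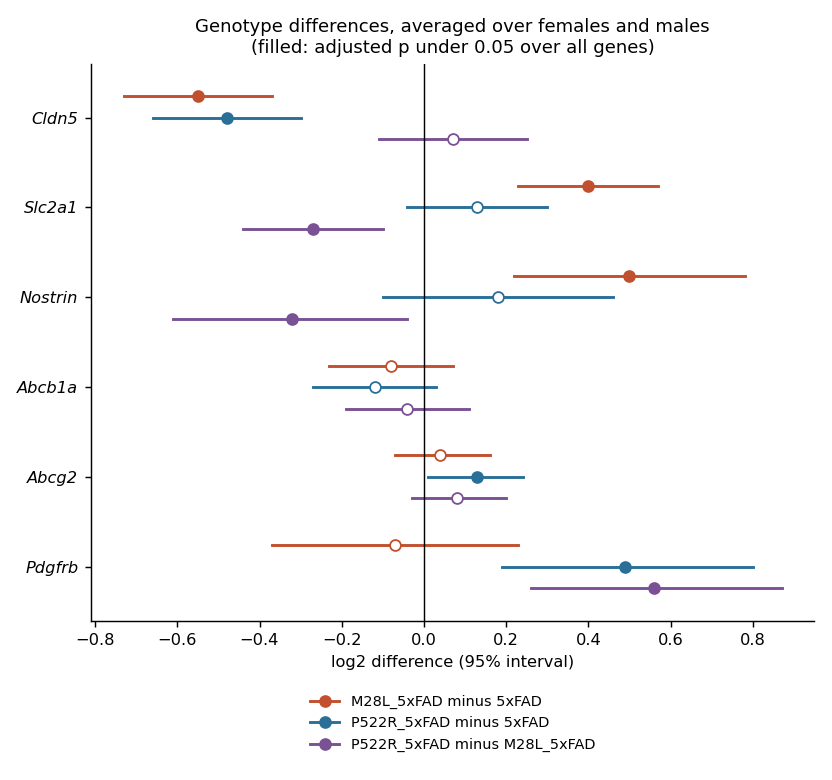
Log2 differences of the 6 genes (horizontal axis) between genotypes averaged over females and males, with 95% intervals from the fit over 36 mice; filled points have an adjusted p below 0.05. Cldn5 lies at -0.55 for M28L_5xFAD and -0.48 for P522R_5xFAD, while Slc2a1 (0.40) and Nostrin (0.50) lie above 0 for M28L_5xFAD and Pdgfrb (0.49) for P522R_5xFAD.

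P522R_5xFAD mice were compared with the same 5xFAD mice. Averaged over the sexes, 3 of the 6 genes passed, against 65.4% of all genes, so the share of barrier genes called was no higher than that of the table. Cldn5 fell here too, and Pdgfrb and Abcg2 rose. This comparison and the one above share their 5xFAD mice, and each is given with its own values.

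Cldn5 in females ran from 7.96 to 8.59 with a median of 8.08 in P522R_5xFAD mice, and from 8.01 to 8.83 with a median of 8.45 in 5xFAD mice. In males it ran from 7.96 to 8.42 with a median of 8.13 in P522R_5xFAD mice, and from 8.66 to 9.04 with a median of 8.89 in 5xFAD mice. In females 2 of 6 P522R_5xFAD mice lay below every 5xFAD mouse and the groups otherwise overlapped, while the male groups did not overlap. The averaged difference was -0.48 ± 0.09 (SE; adjusted p = 1.31e-05), or 1.40-fold lower. In males the fall was -0.73 (adjusted p = 9.60e-06), while in females the difference was -0.24 (adjusted p = 0.101). The female effect minus the male effect was 0.49 (95% interval 0.13 to 0.85, adjusted p = 0.0436). The call of this interaction ended with 12 of 24 mice left out singly (0.41 to 0.57) and in 9 of 14 alternatives. All 4 other scalings were among these, at 0.36 (adjusted p = 0.142) after median centring, 0.45 (adjusted p = 0.0722) after centring within panels, 0.41 (adjusted p = 0.0949) after quantile normalisation and 0.55 (adjusted p = 0.109) after housekeeping centring. With only the 5xFAD mice of index 4 to 6 it was 0.19 (adjusted p = 0.546). Against index 1 to 3 the Cldn5 difference in females was 0.08 (adjusted p = 0.599), and against index 4 to 6 it was -0.56 (adjusted p = 0.001).

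Pdgfrb in females ran from 4.37 to 5.91 with a median of 5.56 in P522R_5xFAD mice, and from 4.33 to 5.30 with a median of 5.15 in 5xFAD mice. In males it ran from 5.97 to 6.37 with a median of 6.17 in P522R_5xFAD mice, and from 4.99 to 5.90 with a median of 5.73 in 5xFAD mice. The male groups did not overlap, and 11 of 12 P522R_5xFAD mice lay above the 5xFAD mean of their sex. The averaged rise was 0.49 ± 0.15 (SE; adjusted p = 0.00446), or 1.41-fold. It passed in males (0.60, adjusted p = 0.0173) but not without the 5xFAD male 1270 (0.49, adjusted p = 0.0634) or against the 5xFAD mice of index 1 to 3 (0.57, adjusted p = 0.0951), and did not pass in females (0.38, adjusted p = 0.119).

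The dim level of the Pdgfrb panel moved with these groups. The 100 dimmest genes had group medians of 18.8 normalised counts in P522R_5xFAD females and 12.2 in 5xFAD females, and of 26.5 in P522R_5xFAD males and 18.5 in 5xFAD males. Pdgfrb itself had geometric means of 43.0 in P522R_5xFAD females and 33.0 in 5xFAD females, and of 72.5 in P522R_5xFAD males and 47.7 in 5xFAD males. After the dim level of each mouse was subtracted, the averaged difference was 0.51 with an adjusted p of 0.235, so the call did not hold.

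Abcg2 had medians of 7.94 in P522R_5xFAD females and 7.83 in 5xFAD females, and of 8.33 in P522R_5xFAD males and 8.17 in 5xFAD males. The difference was 0.13 ± 0.06 (SE; adjusted p = 0.0459), close to the threshold, and it was lost when any 1 of 15 of the 24 mice was left out (0.11 to 0.14) and in 7 of 15 alternatives. Averaged over the sexes, Slc2a1 differed by 0.13 (95% interval -0.04 to 0.30), Nostrin by 0.18 (-0.10 to 0.46) and Abcb1a by -0.12 (-0.27 to 0.03), and none of these passed.

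Slc2a1 and Abcb1a each had a positive difference from 5xFAD mice in females and a negative one in males, not all of which passed. In females, 1 of the 6 genes passed, against 60.2% of all genes, and it was Slc2a1 at 0.39 (adjusted p = 0.00503), or 0.27 (adjusted p = 0.131) against the 5xFAD mice of index 1 to 3. In males, 3 of 6 passed, against 50.6% of all genes, and beside Cldn5 and Pdgfrb this was Abcb1a at -0.41 (adjusted p = 0.00121). Slc2a1 in males differed by -0.13 (adjusted p = 0.384) and Abcb1a in females by 0.16 (adjusted p = 0.171). Abcb1a in males ran from 7.37 to 7.99 with a median of 7.81 in P522R_5xFAD mice and from 7.95 to 8.41 with a median of 8.15 in 5xFAD mice. These groups barely overlapped. The interaction with sex passed for 3 of the 6 genes, against 20.9% of all genes: Abcb1a at 0.57 ± 0.15 (adjusted p = 0.00487), Slc2a1 at 0.52 ± 0.17 (adjusted p = 0.0246) and Cldn5 as above. The Slc2a1 interaction was lost without the 5xFAD male 1177 (0.45, adjusted p = 0.0511) and in 7 of 14 alternatives. These included all 4 other scalings, at 0.40 (adjusted p = 0.092) after median centring, 0.43 (adjusted p = 0.0684) after centring within panels, 0.43 (adjusted p = 0.0673) after quantile normalisation and 0.58 (adjusted p = 0.0844) after housekeeping centring. It was also lost with either 5xFAD subset, at 0.53 (adjusted p = 0.103) for index 1 to 3 and 0.51 (adjusted p = 0.105) for index 4 to 6. The Abcb1a interaction passed in all 14 alternatives (0.45 to 0.63). The sign was the same in these 3 genes, with the female effect above the male one, and the median interaction of all genes was 0.10.

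**Figure D3:**
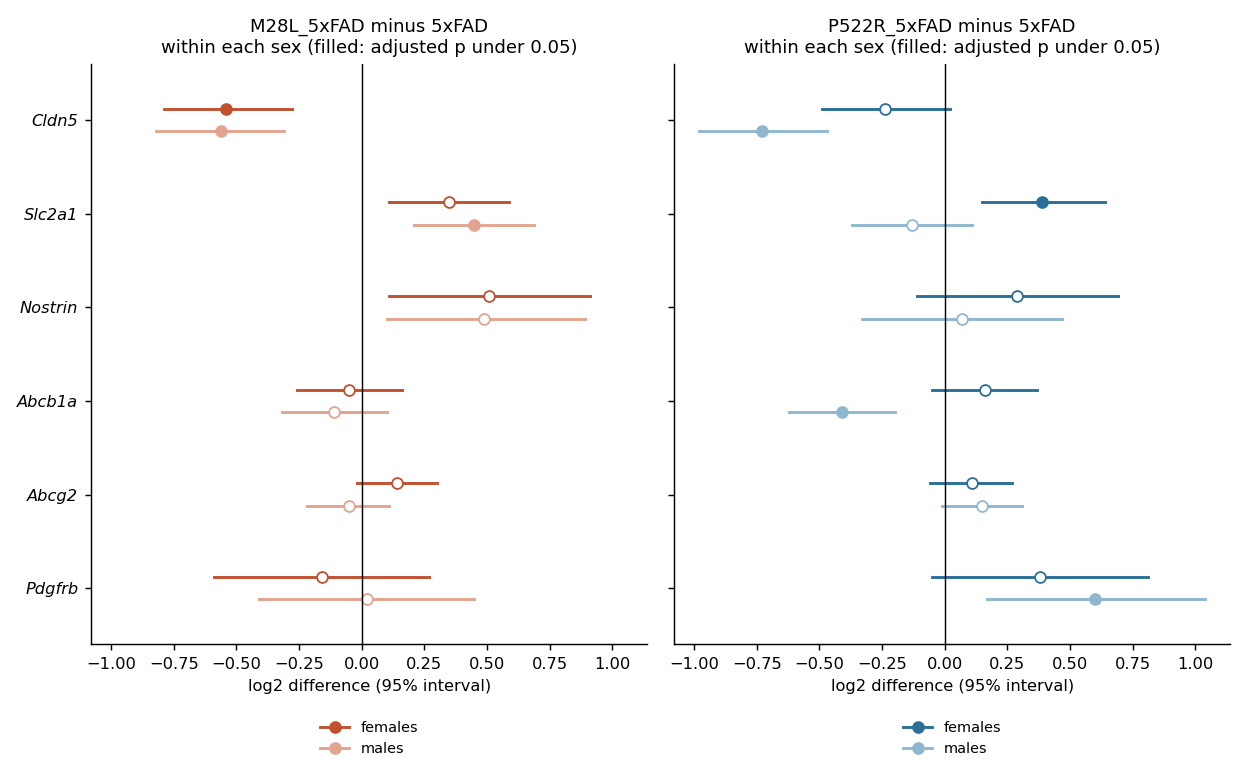
Log2 differences of the 6 genes (horizontal axis) from 5xFAD mice within females (upper, darker) and males (lower, lighter) for M28L_5xFAD (left) and P522R_5xFAD (right), with 95% intervals; filled points have an adjusted p below 0.05. For M28L_5xFAD the sexes lie close together for Cldn5 (-0.54 and -0.56), whereas for P522R_5xFAD they lie apart for Cldn5 (-0.24 and -0.73), Slc2a1 (0.39 and -0.13) and Abcb1a (0.16 and -0.41).

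P522R_5xFAD mice were also compared directly with M28L_5xFAD mice. The 2 variants differed in 3 of the 6 genes, against 67.6% of all genes. Slc2a1 was lower in P522R_5xFAD mice by -0.27 ± 0.08 (SE; adjusted p = 0.00589) and Nostrin by -0.32 ± 0.14 (SE; adjusted p = 0.039), while Pdgfrb was higher by 0.56 ± 0.15 (SE; adjusted p = 0.00135). Cldn5, which fell in both against 5xFAD mice, differed by 0.07 between them, with a 95% interval of -0.11 to 0.25 (adjusted p = 0.497). Over all genes 525 were higher and 331 lower, and after housekeeping centring 183 and 483. With each mouse centred within its panel the Slc2a1 difference was -0.03 (adjusted p = 0.727). The Slc2a1 call was lost in 4 of 15 alternatives and the Nostrin call in 3 of 15, and the Nostrin call also with any 1 of 12 of the 24 mice left out (-0.41 to -0.27).

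In females, 2 of 6 genes passed, against 61% of all genes: Cldn5 at 0.30 (adjusted p = 0.0368) and Pdgfrb at 0.54 (adjusted p = 0.0267). The Cldn5 call in females was lost with any 1 of 4 mice left out (0.22 to 0.34 over 12 omissions), and that of Pdgfrb with any 1 of 4, the lowest value being 0.34 without M28L_5xFAD female 20. They were also lost in 8 and 6 of 14 alternatives, in the same order of genes. In males, 4 of 6 passed, against 50% of all genes. Slc2a1 was lower at -0.58 (adjusted p = 0.000102) and Abcb1a at -0.30 (adjusted p = 0.016), and Abcg2 was higher at 0.20 (adjusted p = 0.033) and Pdgfrb at 0.58 (adjusted p = 0.0212). The Abcb1a call in males was lost without the P522R_5xFAD male 31 (-0.22, adjusted p = 0.0734), and the Abcg2 call with any 1 of 4 mice left out. Of 14 alternatives, 3 ended the call of Abcb1a, 5 that of Abcg2 and 5 that of Pdgfrb in males. Abcg2 was above every M28L_5xFAD male in all 6 P522R_5xFAD males, and so was Pdgfrb. The share of all genes that separated these males was not counted. The interaction with sex passed for 2 of 6 genes, against 23.5% of all genes: Slc2a1 at 0.63 ± 0.17 (adjusted p = 0.00596) and Abcb1a at 0.52 ± 0.15 (adjusted p = 0.00916). Each of these interactions was lost in 3 of 14 alternatives.

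Within a mouse, the 6 genes were then set against each other. The ratio of 2 genes of the same panel in the same mouse does not depend on a scaling factor for that mouse. Cldn5, Nostrin, Abcb1a and Abcg2 shared the panel of 757 genes, and Slc2a1 and Pdgfrb that of 509 genes. Over 15 pairs and 3 genotype comparisons, 30 of 45 ratios differed by a permutation test within sex after adjustment over the 45. Of the 21 ratios within a panel, 13 differed. The share over all pairs of genes in the table was not computed, so the ratio counts here and below do not set the 6 genes apart. For M28L_5xFAD against 5xFAD mice the counts were 11 of 15 and, within a panel, 6 of 7.

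The log2 ratio of Cldn5 to Nostrin ran from 2.50 to 3.62 in M28L_5xFAD females with a median of 2.84, and from 3.29 to 4.78 in 5xFAD females with a median of 3.77. In males it ran from 2.05 to 3.04 with a median of 2.58 in M28L_5xFAD mice, and from 3.09 to 4.37 with a median of 3.53 in 5xFAD mice. The male groups did not overlap. The difference was -1.05 ± 0.19 (SE; permutation test, adjusted p = 0.00105). For Cldn5 to Slc2a1, measured on different panels, it was -0.95 ± 0.14 (SE; permutation test, adjusted p = 0.000225). Cldn5 also fell relative to Abcb1a by 0.47 and to Abcg2 by 0.59 within the panel (permutation test, adjusted p = 0.0042 and 0.00108). Nostrin rose relative to Abcb1a by 0.58 (permutation test, adjusted p = 0.00571), and the ratio of Slc2a1 to Nostrin differed by -0.10 (permutation test, adjusted p = 0.624).

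For P522R_5xFAD against 5xFAD mice, 9 of 15 ratios differed, 4 of the 7 within a panel among them. Cldn5 was lower relative to each of the other 5 genes, by between -0.36 for Abcb1a and -0.97 for Pdgfrb. Between P522R_5xFAD and M28L_5xFAD mice, 10 of 15 ratios differed, with Slc2a1 to Pdgfrb, within a panel, at -0.83 ± 0.19 (SE; permutation test, adjusted p = 0.00315).

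**Figure D4:**
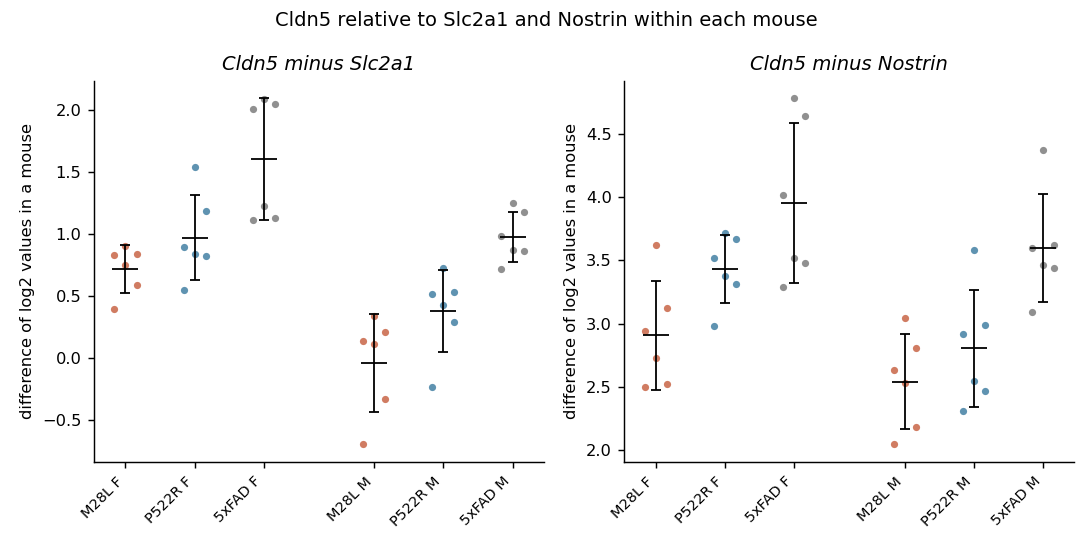
Log2 value of Cldn5 minus that of Slc2a1 (left, different panels) and of Nostrin (right, same panel) in each mouse (vertical axes), by genotype and sex; bars are the mean and SD of 6 mice. In males all 6 M28L_5xFAD mice lie below all 6 5xFAD mice in both plots, from 2.05 to 3.04 against 3.09 to 4.37 for Nostrin.

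Females were compared with males. All 6 genes were lower in females than in males averaged over the genotypes, against 86.4% of all genes called and 83.7% called lower. After median centring, 307 genes were higher and 423 lower. The median difference of all genes was -0.38, so each gene is also given relative to it. Slc2a1 differed by -0.95 ± 0.07 (SE; adjusted p = 5.78e-15), or -0.57 relative to the median. Every female had less Slc2a1 than any male of the same genotype, and the share of all genes for which this holds was not counted. Nostrin differed by -0.74 (-0.36 relative to the median), Pdgfrb by -0.66 (-0.28) and Abcb1a by -0.59 (-0.21). Cldn5 and Abcg2 each differed by -0.29, which is 0.09 above the median. After each mouse was centred on its median, these 2 genes stood at 0.04 and 0.03 and did not pass, while Slc2a1 (-0.62), Nostrin (-0.41), Pdgfrb (-0.34) and Abcb1a (-0.27) did. The dim level of each panel was lower in females of each genotype, as were the totals in M28L_5xFAD and 5xFAD mice, and their part in these differences was not tested. A run that followed sex cannot be told apart from it.

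By genotype, 5 of 6 genes were lower in M28L_5xFAD females than males (69% of all genes called), 5 of 6 in P522R_5xFAD mice (69.6%) and 6 of 6 in 5xFAD mice (72%). Slc2a1 differed by -1.19 in M28L_5xFAD, -0.57 in P522R_5xFAD and -1.09 in 5xFAD mice. Cldn5 differed by -0.44, 0.03 and -0.46 in the same order, and in P522R_5xFAD mice it did not pass (adjusted p = 0.859). Abcg2 did not pass in M28L_5xFAD mice (-0.15, adjusted p = 0.0964). The Abcb1a call in P522R_5xFAD mice (-0.23) was lost with any 1 of 8 mice left out, and the Pdgfrb call in 5xFAD mice (-0.53) with any 1 of 3. After median centring 0 of 6 passed in P522R_5xFAD mice, where 89 of all 1266 genes were called.

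Across the 6 groups the genes had different orders. Cldn5 was highest in 5xFAD males (8.88 ± 0.15, SD, n = 6) and lowest in M28L_5xFAD females (7.88 ± 0.14). Between these lay 5xFAD females (8.41), M28L_5xFAD males (8.31), P522R_5xFAD females (8.18) and P522R_5xFAD males (8.15), and no neighbours among these 4 differed by more than the larger of their SDs. Slc2a1 was highest in M28L_5xFAD males (8.35 ± 0.22) and lowest in 5xFAD females (6.81 ± 0.18), with all male groups above all female groups. Nostrin had the same highest and lowest groups (5.77 ± 0.32 and 4.46 ± 0.33), and only the step below M28L_5xFAD males exceeded the larger SD. Abcb1a fell into a male range of 7.74 to 8.15 and a female range of 7.29 to 7.51 in group means. The highest group was P522R_5xFAD males for both Abcg2 (8.33 ± 0.11) and Pdgfrb (6.18 ± 0.13). The group means of Abcg2 spanned 7.83 to 8.33, and Pdgfrb was lowest in M28L_5xFAD females (4.89 ± 0.53).

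Pairs of the 6 genes were also compared within groups. Correlations were computed over the 36 mice as deviations from the mean of each genotype and sex group, for 15 pairs. Pearson's r ran from -0.42 (Nostrin and Pdgfrb) to 0.50 (Slc2a1 and Abcb1a), and 0 of 15 pairs passed after adjustment by either r or Spearman's rho. This count depended on the scaling, since 2 pairs passed after median centring (Slc2a1 and Abcb1a at 0.52, Abcb1a and Abcg2 at 0.50, permutation test, adjusted p = 0.0304 each). After quantile normalisation 2 passed and after housekeeping centring 4 did, with Slc2a1 and Abcb1a at 0.68 (permutation test, adjusted p = 0.00195) and Abcb1a and Abcg2 at 0.66 (permutation test, adjusted p = 0.00367). For Slc2a1 and Abcb1a, r was 0.50 (permutation p = 0.00514, adjusted 0.0771), rho was 0.44 (permutation p = 0.0144, adjusted 0.216), and r was 0.39 without the 2 mice farthest from the median of Slc2a1. Within the separate groups this r ran from -0.43 to 0.77. Cldn5 and Slc2a1 had r = -0.21 (permutation p = 0.213, adjusted 0.533), and Cldn5 and Nostrin had r = -0.17 (permutation p = 0.317, adjusted 0.657).

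The genes most like each of the 6 were taken by the highest Pearson r of the same deviations, as a description over 36 mice. Abcb1a was most like Pecam1 (0.51) and Adgrl4 (0.50), both endothelial genes, and Slc2a1 (0.50). The other 5 had no gene of the endothelial or mural lists among their nearest 3. Cldn5 was most like Wdr35 (0.65), Slc2a1 like Unc13a (0.58), Nostrin like Prkab2 (0.62), Abcg2 like Selenos (0.69) and Pdgfrb like Grin1 (0.81). Mice share their panel's scaling factor, and 15 of the 18 genes named by this rule were on the same panel as the gene they resembled.

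The rest of the vascular genes give the setting. Each count below is to be read beside the share of all genes called, higher or lower, in the same comparison. The lists too were chosen with earlier results of these data known, so these shares do not set a list apart. Among 23 measured endothelial and barrier genes, the 6 genes without Pdgfrb included, 3 rose and 2 fell in M28L_5xFAD against 5xFAD mice, where 10.3% of all genes were called, with a median of 0.05. Beside Slc2a1, Nostrin and Cldn5 these were Angpt2, which encodes a ligand that loosens vessels (0.49 ± 0.16, adjusted p = 0.0473), and Cd34, a surface glycoprotein of endothelial and stem cells (-0.22 ± 0.05, adjusted p = 0.00476). F11r, which encodes the junctional protein JAM-A, differed by -0.21 (adjusted p = 0.0731). The remaining genes included Pecam1 (-0.17), Tie1 (0.03), Esam (-0.04) and Tjp1, which encodes the junction scaffold ZO-1 (0.06), and none of these passed. In P522R_5xFAD against 5xFAD mice, 5 rose and 3 fell, against 65.4% of all genes called, with a median of 0.07. Among them Tjp1 rose (0.17, adjusted p = 0.00446), Eng, a co-receptor for TGF-beta, rose (0.24, adjusted p = 0.027) and Egfl7, an endothelial secreted factor, fell (-0.23, adjusted p = 0.000205). Between P522R_5xFAD and M28L_5xFAD mice 3 were higher and 3 lower, against 67.6% of all genes called, with Flt1, a VEGF receptor, higher (0.31, adjusted p = 0.00618) and Cd34 higher (0.14, adjusted p = 0.0175).

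Of 6 measured mural genes, 0 passed in M28L_5xFAD against 5xFAD mice (10.3% of all genes called, median -0.02). In P522R_5xFAD against 5xFAD mice 5 rose and 1 fell, where 65.4% of all genes were called, with a median of 0.50 against 0.08 for all genes. Notch3, a receptor of smooth muscle and pericytes, rose by 0.62 (adjusted p = 0.000222), Lama2, a laminin chain, by 0.30 (adjusted p = 8.1e-05) and Cspg4, which encodes NG2, by 0.61 (adjusted p = 1.8e-07). Of the filament genes on this list, Des rose (0.50, adjusted p = 0.0281) and Vim was the gene that fell (-0.22, adjusted p = 0.00978). Pdgfrb was also among the 5 that rose, although its call did not hold after the dim level was subtracted. Cspg4 also marks oligodendrocyte precursors, whose 5 markers summed to between 1339.9 and 2080.3 normalised counts in P522R_5xFAD mice and between 817.1 and 1672.2 in 5xFAD mice. The part of these cells in the Cspg4 value was not tested. Against M28L_5xFAD mice the same 6 genes gave 5 higher and 1 lower, where 67.6% of all genes were called, with a median of 0.54.

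**Figure D5:**
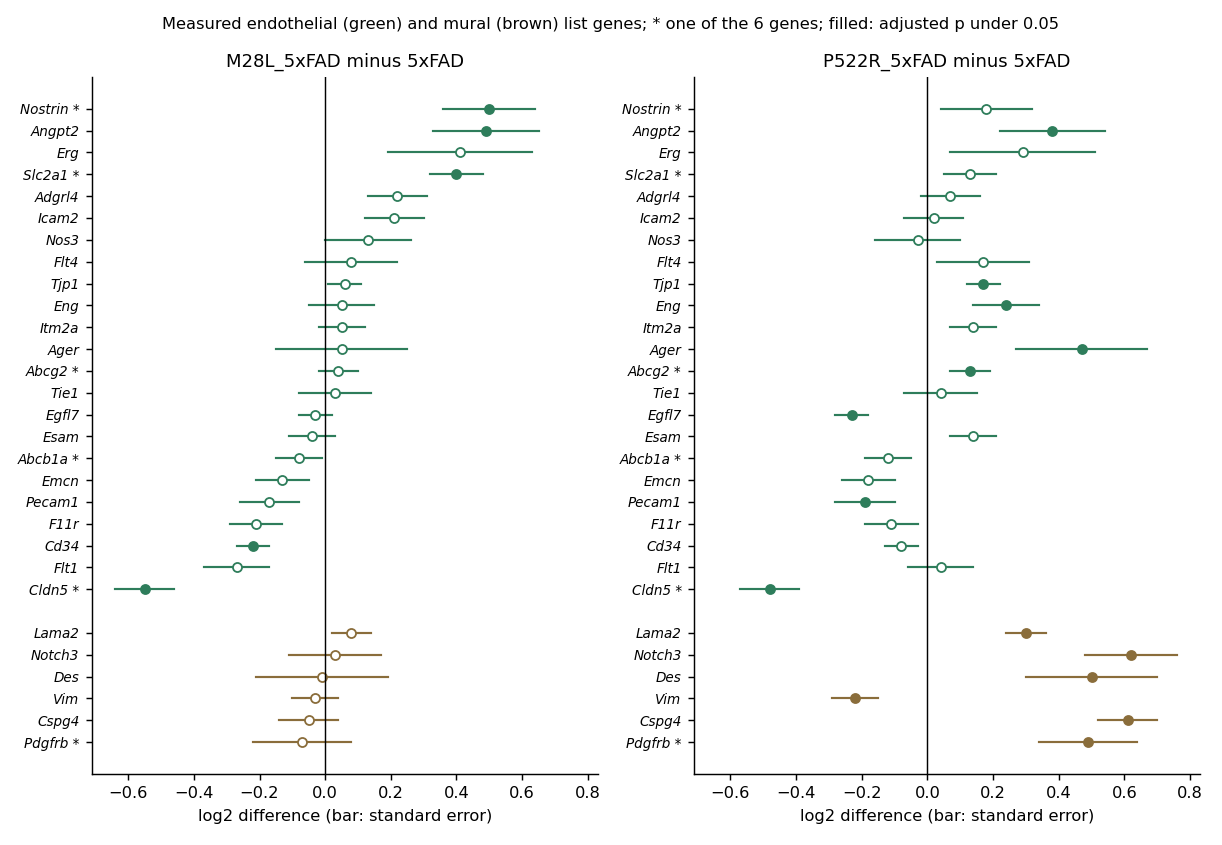
Log2 differences (horizontal axes) of all measured endothelial and barrier genes (23, green) and mural genes (6, brown) for M28L_5xFAD minus 5xFAD (left) and P522R_5xFAD minus 5xFAD (right); bars are standard errors, filled points have an adjusted p below 0.05, and a star marks one of the 6 genes. On the left 5 endothelial and 0 mural genes are filled, and Cldn5 at -0.55 and Nostrin at 0.50 are the ends of the list; on the right 5 of 6 mural genes lie above 0.

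Ligands, receptors and matrix genes that shape the barrier were also listed, and 22 were measured. In M28L_5xFAD against 5xFAD mice 4 rose and 2 fell, against 10.3% of all genes called, with a median of -0.06. Tgfbr2, the type II TGF-beta receptor, fell by 0.41 (adjusted p = 0.000916). Smad3, a transducer of that pathway, rose by 0.25 (adjusted p = 0.00739), and Axin2, a target gene of Wnt signalling, rose by 0.21 (adjusted p = 0.0231). In P522R_5xFAD against 5xFAD mice 11 rose and 3 fell, against 65.4% of all genes called, with a median of 0.26. Ctnnb1, which encodes beta-catenin, rose by 0.51 (adjusted p = 5.29e-09), Smad3 by 0.48 (adjusted p = 3.85e-08), and Shh, a ligand that astrocytes present to vessels, fell by 0.55 (adjusted p = 3.21e-07). Between P522R_5xFAD and M28L_5xFAD mice 11 were higher and 3 lower, against 67.6% of all genes called, with Tgfbr2 at 0.70 (adjusted p = 5.66e-09).

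Astrocyte endfeet wrap the vessels, and 5 of their genes were measured. In M28L_5xFAD against 5xFAD mice, with 10.3% of all genes called, 1 fell, Gfap, the astrocyte filament gene (-0.38, adjusted p = 0.033), while Aqp4, the endfoot water channel, differed by -0.18 (adjusted p = 0.125). In P522R_5xFAD against 5xFAD mice 4 rose and 0 fell, against 65.4% of all genes called, with the potassium channel gene Kcnj10 at 0.43 (adjusted p = 5.12e-08). Against M28L_5xFAD mice all 5 were higher, against 67.6% of all genes called, with Aqp4 at 0.36 (adjusted p = 6.72e-05). Of 13 adhesion, protease and clotting genes, 0 passed in M28L_5xFAD against 5xFAD mice (10.3% of all genes called). In P522R_5xFAD mice 5 rose and 1 fell against 5xFAD mice (65.4% of all genes called), with Itgal, an integrin of leukocytes, at 0.66 (adjusted p = 0.000253). Against M28L_5xFAD mice 6 were higher and 2 lower (67.6% of all genes called), with the adhesion receptor gene Icam1 at -0.52 (adjusted p = 0.00212).

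Of 9 genes for amyloid efflux and clearance, 0 passed in M28L_5xFAD against 5xFAD mice (10.3% of all genes called), where Ide, an amyloid-degrading protease, stood at 0.36 (adjusted p = 0.0935). In P522R_5xFAD against 5xFAD mice 5 rose and 2 fell, with 65.4% of all genes called. Lrp1, a receptor that carries amyloid-beta out of the brain, rose by 0.73 (adjusted p = 1.36e-09) and Sorl1, a sorting receptor for the precursor protein, by 0.48 (adjusted p = 3.66e-08), while Abca1, a cholesterol exporter, fell by 0.30 (adjusted p = 3.42e-05). Against M28L_5xFAD mice 3 were higher and 2 lower (67.6% of all genes called), with Lrp1 at 0.79 (adjusted p = 1.91e-10). The 6 measured neuronal markers summed to 58595.2 to 69779.7 normalised counts in P522R_5xFAD females and 44460.5 to 53476.7 in 5xFAD females. In males these sums ran from 73291.4 to 84986.3 in P522R_5xFAD and from 67544.4 to 70380.8 in 5xFAD mice. The part of neurons in the list values here and above was not tested.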

How the data were processed

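Total RNA from mouse cortex was counted on NanoString nCounter panels (Glial and Neuropathology), per the labels' protocols. The authors deposited 1 table of normalised log2 values, with 1 column per mouse, which the labels tie to 2 records each. The step by which the authors normalised them was not given in the sources used here. Of 1517 rows, 251 name no gene and were left out. Within each mouse, 100.0% of linear values were whole multiples of 1 step per panel (tolerance 0.05), which assigned genes to a panel of 757 and one of 509 and gave the recovered counts. Which of these is which named panel was not matched.

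Mice were grouped by the genotype and sex in the labels. They carry separate numbers, except that 2 M28L_5xFAD females are both numbered 14. limma 3.58.1 in R 4.3.3 (group means for 6 groups, eBayes with a variance trend) was fitted to all 1266 genes with Benjamini-Hochberg adjustment, and genotype differences are the mean of the female and male differences. Ratios were tested by permuting genotype within sex and correlations by permuting mice within groups, two-sided, with 100000 resamples. Scripts were tested on simulated data. The 6 genes and the gene lists were chosen with earlier results of these data known. Beside the 6, the text names from each list up to 3 genes with the smallest p per genotype comparison, the remaining genes named being context chosen after their values were seen, and the 3 genes most correlated with each of the 6. Promoters came from RefSeq, and windows were taken for the 5 genes that lie off chromosome 18. Pdgfrb lies on chromosome 18, and no window was taken for it. Alternatives were 4 other scalings, a filter at a mean log2 value of 5, a pseudocount of 20, other variance models, no sex term, only the groups compared, the index number as a block, the mice numbered 14 averaged, and each mouse left out. Of the scalings, housekeeping centring rested on only 2 genes, those of a housekeeping list that the table held. Subtracting the median of the 100 dimmest genes and using subsets of index numbers were added after seeing the data. Figures were drawn with matplotlib 3.10.9. Intervals cover the spread between mice. The number of counts limits precision for Nostrin and Pdgfrb.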

Additional observations from a re-analysis of the deposited data

Results flagged for a closer look

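Pdgfrb had 1 mouse far below the rest in each female group. The value was 3.88 in M28L_5xFAD female 20, where the next lowest was 4.88. It was 4.37 in P522R_5xFAD female 60, against a next lowest of 5.44, and 4.33 in 5xFAD female 1180, against 5.11. These are 3 of 36 gene and group combinations checked, and chance flags about 1 in 20. Pdgfrb had as few as 8 recovered counts in a mouse.

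The difference between P522R_5xFAD and 5xFAD mice itself differed between females and males for 3 genes by limma's interaction term: Cldn5 by 0.49 (adjusted p = 0.0436), Slc2a1 by 0.52 (adjusted p = 0.0246) and Abcb1a by 0.57 (adjusted p = 0.00487). The first of these calls was lost in 9 of 14 alternatives, that of Slc2a1 in 7 of 14 and that of Abcb1a in 0. The difference between P522R_5xFAD and M28L_5xFAD mice also differed between the sexes for Slc2a1, by 0.63 (adjusted p = 0.00596), and Abcb1a, by 0.52 (adjusted p = 0.00916). The female difference was above the male one in each case.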

How the results depend on the processing

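The cause of each change below was not tested. The Cldn5 fall passed in every alternative run for M28L_5xFAD against 5xFAD (-0.72 to -0.38) and P522R_5xFAD against 5xFAD (-0.65 to -0.31), averaged over the sexes. Changes by over 1.5 times in the number of the 6 genes called are given for each comparison, with smaller ones for the averaged comparisons. For M28L_5xFAD against 5xFAD (3 genes) it was 1 with no sex term and 1 against 5xFAD index 1 to 3, 2 with background subtraction, the replicate block or either M28L_5xFAD subset, and 4 after housekeeping centring. In females (1 gene) it was 2 after quantile normalisation, 3 after housekeeping centring, 2 with M28L_5xFAD index 1 to 3, and 0 with only the groups compared, the replicate block, M28L_5xFAD index 7 to 9 or 5xFAD index 1 to 3. In males (2 genes) it was 1 after centring within panels, housekeeping centring, background subtraction or with 5xFAD index 1 to 3, and 0 with the replicate block or M28L_5xFAD index 1 to 3. For P522R_5xFAD against 5xFAD (3 genes) it was 1 after background subtraction, 2 after median centring, housekeeping centring, with no sex term, the replicate block or 5xFAD index 1 to 3, and 4 after centring within panels or with 5xFAD index 4 to 6, and in females (1 gene) 2 after either median centring or with 5xFAD index 4 to 6, and 0 with 5xFAD index 1 to 3. For P522R_5xFAD against M28L_5xFAD (3 genes) it was 1 with no sex term, 2 after centring within panels, with the mice numbered 14 averaged, the replicate block or M28L_5xFAD index 1 to 3, and 4 after quantile normalisation or housekeeping centring. In females (2 genes) it was 0 after median centring, housekeeping centring or with M28L_5xFAD index 7 to 9, and 1 after centring within panels, quantile normalisation, background subtraction, with only the groups compared or the replicate block. In males (4 genes) it was 1 with the replicate block or either M28L_5xFAD subset. The interaction for P522R_5xFAD against 5xFAD (3 genes) fell to 1 under all 4 other scalings, the replicate block and 5xFAD index 4 to 6. That for P522R_5xFAD against M28L_5xFAD (2 genes) was 0 after housekeeping centring and 1 with the replicate block or M28L_5xFAD index 1 to 3. Females against males (6 genes) gave 3 after centring within panels and 4 after median centring, quantile normalisation or housekeeping centring. Under median centring, centring within panels, quantile normalisation and housekeeping centring in turn, it gave 2, 3, 2 and 3 in 5xFAD, 3, 3, 3 and 2 in M28L_5xFAD, and 0 in all 4 in P522R_5xFAD, where background subtraction gave 3. In P522R_5xFAD the same 4 scalings called 89, 28, 101 and 37 of all 1266 genes for females against males. Genes called for M28L_5xFAD against 5xFAD, 130 in all, were 306 after housekeeping centring, 30 with no sex term, 77 with M28L_5xFAD index 1 to 3, 59 with 5xFAD index 1 to 3 and 67 with 5xFAD index 4 to 6. Correlated pairs, 0 of 15, were 2 after median centring, 2 after quantile normalisation and 4 after housekeeping centring.

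Of the values that changed sign, those of females against males had passed and the others had not. Against 5xFAD index 1 to 3, Abcg2 in M28L_5xFAD was 0.00, Nostrin in P522R_5xFAD -0.01, Cldn5 in P522R_5xFAD females 0.08 and the M28L_5xFAD interaction of Nostrin -0.01. Against 5xFAD index 4 to 6, Slc2a1 in P522R_5xFAD males was 0.01 and the M28L_5xFAD interaction of Cldn5 -0.27. After quantile normalisation, Nostrin in P522R_5xFAD against 5xFAD was -0.07, Slc2a1 in P522R_5xFAD against M28L_5xFAD females -0.06 and the M28L_5xFAD interaction of Nostrin -0.04. In females against males it gave Cldn5 0.07 and Abcg2 0.06, Abcg2 in 5xFAD 0.05 and Abcb1a in P522R_5xFAD 0.06. After median centring, Slc2a1 in P522R_5xFAD against M28L_5xFAD females was -0.03, the M28L_5xFAD interactions were -0.01 for Cldn5 and -0.02 for Nostrin, and females against males gave Cldn5 0.04, Abcg2 0.03, Abcg2 in 5xFAD 0.04 and Abcb1a in P522R_5xFAD 0.02. After centring within panels, Slc2a1 in P522R_5xFAD against 5xFAD males was 0.05, and P522R_5xFAD against M28L_5xFAD gave Cldn5 -0.04 and Abcg2 -0.02. After housekeeping centring, M28L_5xFAD against 5xFAD gave Abcb1a 0.08 and Pdgfrb 0.10, P522R_5xFAD against M28L_5xFAD gave Cldn5 -0.13 and Abcg2 -0.12, and in females Slc2a1 -0.18 and Abcb1a -0.01. It also gave 0.01 for the M28L_5xFAD interaction of Slc2a1 and the P522R_5xFAD interaction of Abcg2 against 5xFAD, and 0.04 for Abcb1a in P522R_5xFAD females against males. After background subtraction, Nostrin in P522R_5xFAD against 5xFAD was -0.08, and the interactions of P522R_5xFAD against M28L_5xFAD were -0.07 for Nostrin and 0.26 for Pdgfrb. With M28L_5xFAD index 1 to 3, the M28L_5xFAD interactions were -0.09 for Cldn5 and 0.02 for Slc2a1, and those of P522R_5xFAD against M28L_5xFAD -0.12 for Nostrin and 0.23 for Pdgfrb. With M28L_5xFAD index 7 to 9, M28L_5xFAD against 5xFAD gave Abcg2 -0.02 and Pdgfrb 0.08, P522R_5xFAD against M28L_5xFAD females gave Nostrin 0.10 and Abcg2 0.11, and the M28L_5xFAD interaction of Nostrin was -0.31. The last was -0.04 with the pseudocount and -0.01 with the mice numbered 14 averaged.

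The replicate block used the index number, which the labels do not explain. They also do not say whether it pairs animals. Over 22 pairs of mice of different genotype with the same number, correlations of deviations ran from -0.26 to 0.21, and 4 were above 0.1. With the block, Cldn5 in P522R_5xFAD against M28L_5xFAD was -0.02, the interactions of P522R_5xFAD against M28L_5xFAD were -0.01 for Nostrin and 0.29 for Pdgfrb, and 97 genes were called for M28L_5xFAD against 5xFAD. Calls that ended with the block included, for M28L_5xFAD against 5xFAD, Slc2a1 (0.34, adjusted p = 0.095), Cldn5 in females (-0.38, adjusted p = 0.135) and in males (-0.49, adjusted p = 0.213), and the P522R_5xFAD interactions against 5xFAD of Cldn5 (0.51, adjusted p = 0.0679) and Slc2a1 (0.49, adjusted p = 0.111).

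With single mice left out, the genes called ran from 1 to 2 in M28L_5xFAD against 5xFAD females, 1 to 2 in males, 1 to 2 in P522R_5xFAD against 5xFAD females, 0 to 3 in P522R_5xFAD against M28L_5xFAD females, 2 to 5 in males and 1 to 3 for the interaction of P522R_5xFAD against 5xFAD. Pdgfrb in M28L_5xFAD against 5xFAD ran from -0.14 to 0.03, Slc2a1 in P522R_5xFAD against M28L_5xFAD females from -0.03 to 0.11 and Abcg2 there from -0.10 to 0.04. The M28L_5xFAD interactions ran from -0.05 to 0.11 for Cldn5 and -0.10 to 0.19 for Nostrin, and that of P522R_5xFAD against M28L_5xFAD from -0.24 to 0.17 for Pdgfrb. Correlated pairs ran from 0 to 1. Low counts limit Nostrin and Pdgfrb, and the other 4 genes had more counts per mouse.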
